A study of Tupaia belangeri chinensis with 36 samples.

Results

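The genes described here were abundant in the breeding-season testis of the tree shrew and low over most epididymal libraries, though not in all of them. They were chosen as genes with a mean of at least 150 CPM (counts scaled to a common library total) over the 3 testis libraries of the reproductive season (R) and a median under 1 CPM over the 12 epididymal libraries. Of the 27777 genes counted, 1677 reached that testis level, and 154 of these, or 9.18%, also met the epididymal limit. The non-reproductive (NR) testis libraries took no part in the choice, so their levels, and the levels in single epididymal libraries, are what is reported as outcome. The R testis levels and the epididymal median chose the genes, and are given as a description only.

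The tissues came from sexually mature male Tupaia belangeri chinensis of 1.5 to 2 years, a small mammal related to primates. Testis, caput (the head of the epididymis, which receives sperm) and cauda (the tail, which stores them) were collected in mid-December 2023 for NR and in mid-April 2024 for R. Poly(A) RNA-seq was made from 3 biological replicates per tissue and season, which gives 6 groups and 18 libraries. Season and collection date cannot be told apart, and the labels do not say which libraries came from the same animal.

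Sperm are made in the seminiferous tubules of the testis, where germ cells pass through mitotic, meiotic and postmeiotic stages, each with its own set of transcripts. Genes read only in the testis are mostly genes of meiotic and postmeiotic germ cells, which build the acrosome, the tail and the compacted nucleus of the sperm. In seasonal breeders the germ cell layers can shrink outside the breeding season while the supporting Sertoli and Leydig cells remain. Mature sperm carry little RNA, and the epididymal wall has no germ cell layers of its own.

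Genes carry identifiers that could not be paired with symbols (0 of 27777 found in the reference). No gene below therefore has a stated function, and tissue identity was not checked against known marker genes. At most 2 identifiers are printed in each direction, and the other genes are given by their rank in R testis level, from 1 to 154. Library totals ran from 26703225 to 37174187 counts. In the epididymal libraries 1 CPM stood for 26.7 to 32.5 counts, so levels well below 1 CPM were still counted, and the floor of 3 counts lay at 0.0923 to 0.112 CPM.

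The 154 genes took 4.45% of all counts in TESTIS-R 1, 4.40% in TESTIS-R 2 and 4.50% in TESTIS-R 3. Their R means ran from 150.2 to 1038 CPM with a median of 237, and 49 had at least 300 CPM. The R libraries gave nearly the same level for most of them: the coefficient of variation (SD over mean, n = 3) had a median of 6.32% and a middle range of 3.98% to 10.1%. The lowest R mean chosen was 150.2 CPM and the highest left out was 149.2, and the highest epididymal median chosen was 0.989 CPM where the lowest left out was 1.02. These limits cut through continuous ranges.

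Among the NR testes, 1 library had these genes at full level and the other two did not. Their share was 1.49%, 0.731% and 4.49% in TESTIS-NR 1 to 3, a mean of 2.24% ± 1.99 (SD, n = 3) against 4.45% ± 0.0510 (SD, n = 3) in R. TESTIS-NR 3 lay inside the range of the R libraries, and TESTIS-NR 1 and 2 lay far below it. Whether TESTIS-NR 3 carries the right label or came from an animal still in breeding condition cannot be told from the files, and NR means and season tests in the testis include it unless stated. In bulk tissue, fewer cells of a type and less RNA per cell cannot be told apart.

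**Figure D1:**
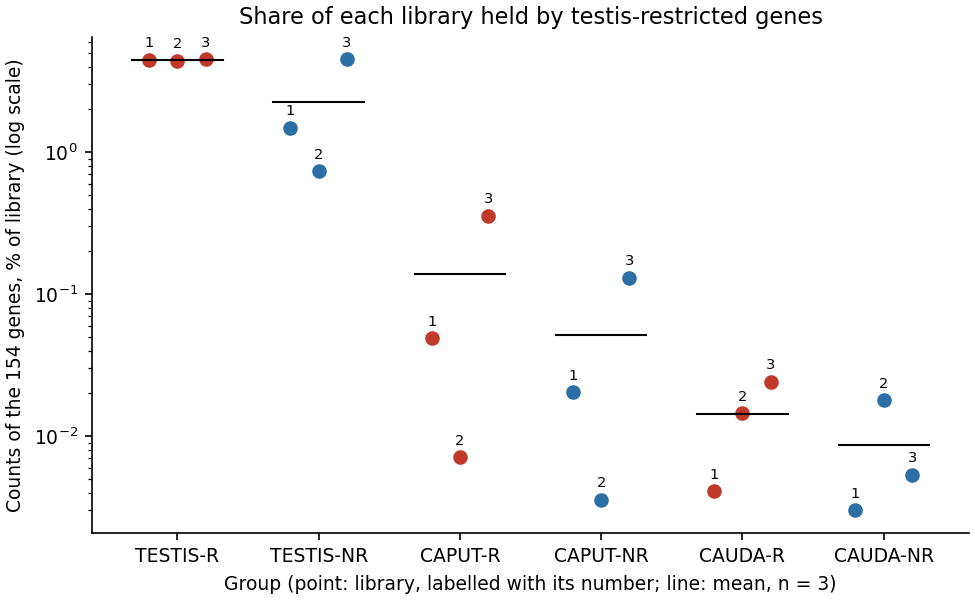
Share of each library's counts (percent, log scale) held by the 154 testis-restricted genes, with 1 point per library and a line at the mean of each group (n = 3). TESTIS-NR 3 sits at 4.49%, among the R testes, and in the epididymis CAPUT-R 3 is highest at 0.357%.

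Gene by gene, the median level was 26.7%, 3.08% and 102% of the R mean in TESTIS-NR 1 to 3. In TESTIS-NR 1, 149 of the 154 genes lay below every R library, where 27.9% of the 23058 genes with a count in the testis did so, and 5 lay above every R library (50.3% of all genes). In TESTIS-NR 2, 150 lay below (28.0% of all genes) and 4 above (52.6%). In TESTIS-NR 3, 26 lay below (20.0% of all genes), 49 above (24.1%) and 79 within the R range. A choice on high R level leans towards lower NR levels, so these counts are a description. In 22 genes every NR library lay below every R library (6.33% of all genes), and in 0 every NR library lay above (11.8%).

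**Figure D2:**
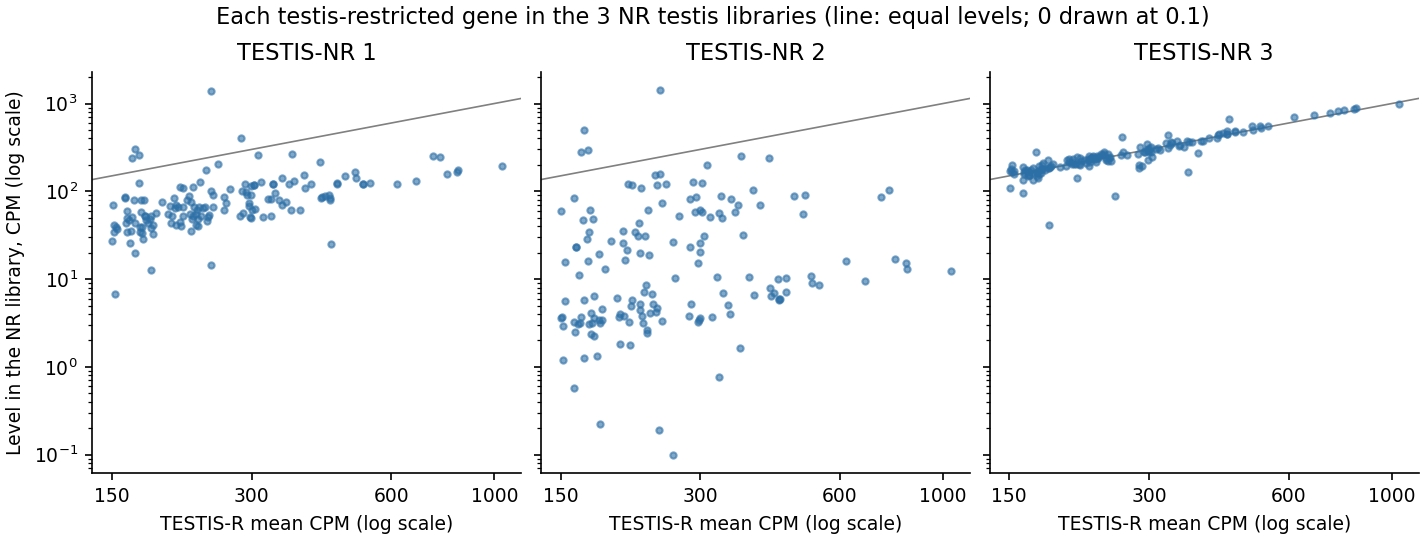
Level of each of the 154 genes in an NR testis library (CPM, log scale) against its mean over the 3 R testis libraries (CPM, log scale), with a line of equal levels. Points follow the line in TESTIS-NR 3, lie below it in TESTIS-NR 1, and spread into an upper and a lower band in TESTIS-NR 2.

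The order of levels was kept to different degrees. The Spearman correlation between a library's level and the R mean over the 154 genes was 0.902 for TESTIS-NR 3, 0.602 for TESTIS-NR 1 and 0.276 for TESTIS-NR 2. The points are genes that share libraries, so these values describe the libraries and carry no test.

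TSDBGID.11207, the most abundant gene of the set, had 1017, 950.4 and 1147 CPM in TESTIS-R 1 to 3. The NR testes 1 to 3 had 193, 12.2 and 1000.3 CPM. The seasons thus overlapped through TESTIS-NR 3, and the fitted change (R minus NR) was 1.43 on the log2 scale with an SE of 1.37 (edgeR quasi-likelihood test, adjusted p 0.498). TSDBGID.11980, second in level, had 828, 837 and 846 CPM in R and 177, 13.2 and 900.0 in TESTIS-NR 1 to 3 (log2 change 1.26, SE 1.32, adjusted p 0.527). Both genes were lower in TESTIS-NR 2 than in TESTIS-NR 1 by more than 10-fold.

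Over all libraries edgeR called 0 of the 154 genes between seasons in the testis, where it called 0% of 17788 genes as higher and 0% as lower in R. Of the set, 2 genes were higher and 1 was lower in R when the unadjusted p was held to 0.05, where 1.38% of all genes were higher and 15.6% lower. DESeq2 called 0 of the 147 it tested, with 0.302% of all genes higher and 2.47% lower. All 154 passed the filter on low counts, 150 had a positive change, and the median log2 change was 1.20 where that of all genes was -0.04. Without TESTIS-NR 3 edgeR called 89 of the 154 higher and 2 lower in R, with 24.8% and 28.8% of 18571 genes called in these directions, and the median log2 change was 3.12. Another 1523 genes met the same R limit but had an epididymal median of at least 1 CPM. In the same fit 1130 of these were called higher, or 74.2% against 57.8% of the set, and their median log2 change was 1.46. Over all libraries their median log2 change was 0.79, against 1.20 for the set. The R levels chose the genes, so the counts are a description.

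The remaining level differed widely from gene to gene in TESTIS-NR 2 and less so in TESTIS-NR 1. In TESTIS-NR 2, 95 genes were under 10% of their R mean and 56 of these under 2%, while 12 were at 50% or more. In TESTIS-NR 1, 4 genes were under 10%, 0 under 2%, and 17 at 50% or more. The middle range over genes was 20.7% to 35.4% in TESTIS-NR 1 and 1.71% to 17.2% in TESTIS-NR 2. TESTIS-NR 2 was lower than TESTIS-NR 1 for 142 of the 154 genes.

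The ratio between these 2 libraries split the genes into bands, whose limits were set after the values were seen. In 85 genes the level in TESTIS-NR 2 was under 18% of that in TESTIS-NR 1, in 11 it was 18% to 35%, in 46 it was 35% to 100%, and in 12 it was higher in TESTIS-NR 2. The bands were cut on these 2 libraries, so how far apart they lie there follows in part from the cut. The first band held median levels of 22.1% of R in TESTIS-NR 1 and 1.80% in TESTIS-NR 2. The band of 46 genes held 34.6% and 19.0%, and the band of 12 held 51.8% and 57.2%. In TESTIS-NR 3 the medians of these 3 bands were 104%, 100.1% and 93.3%, so the bands were hardly apart there.

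**Figure D3:**
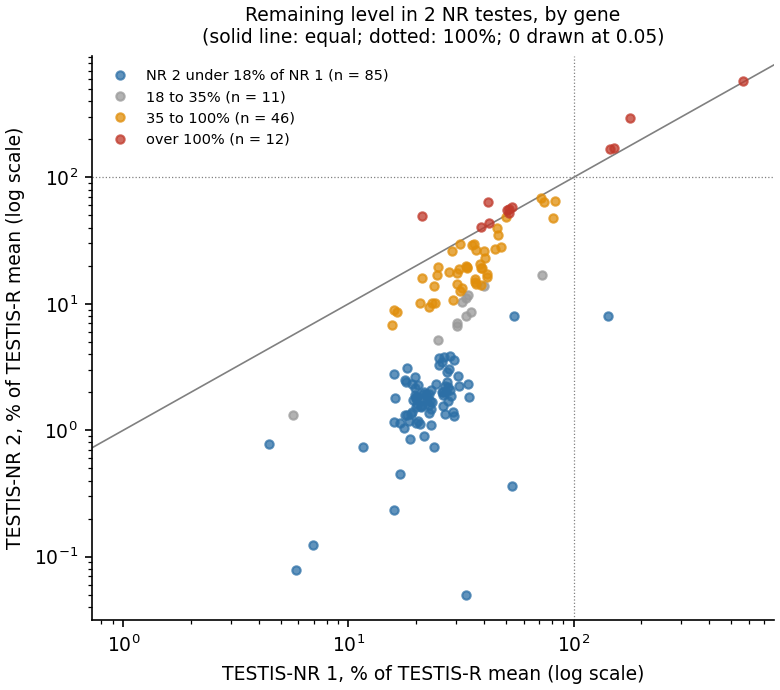
Level of each gene in TESTIS-NR 2 against TESTIS-NR 1, both in percent of the R testis mean (log scales), coloured by the ratio of the 2 libraries. A dense group of 85 genes lies near 22.1% and 1.80%, a looser group runs up towards the line of equal levels, and 4 genes lie above 100% in both.

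Of the first 25 genes by R level 17 fell in the first band, which held 85 of all 154 genes. Ranks 1 to 4 had 156 to 193 CPM in TESTIS-NR 1, and their levels in the second NR testis were 12.2 to 16.9 CPM. Rank 5, with an R mean of 765 ± 49.0 CPM (SD, n = 3), instead had 244 and 103 CPM in these libraries. Rank 72 was among the lowest, with 245 ± 15.9 CPM in R (SD, n = 3) and 14.3, 0.192 and 264 CPM in TESTIS-NR 1 to 3. Rank 66 had 86.8 CPM in TESTIS-NR 1 but 0 counts in TESTIS-NR 2, which allows up to 0.0962 CPM.

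A few genes kept most of their R level in the NR libraries. Rank 30 had 366 ± 8.25 CPM in R (SD, n = 3) and 263, 253 and 369 CPM in TESTIS-NR 1 to 3. Rank 45 had 309.8 ± 6.58 CPM in R and 257, 201 and 302 in NR. Rank 24 had 421 ± 26.5 CPM in R and 218, 237 and 406 in NR. For these genes TESTIS-NR 1 and 2 lay below the R mean by a factor under 2, where for ranks 1 to 4 they lay below it by a factor of more than 4.

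In 4 genes TESTIS-NR 1 and 2 were above every R library. TSDBGID.8584, at rank 71, had 278, 219.5 and 238 CPM in TESTIS-R 1 to 3, but 1384 and 1409 in the first and second NR testis. TESTIS-NR 3, at 219 CPM, was slightly below the R libraries, and the fitted log2 change was -1.63 with an SE of 0.62 (edgeR adjusted p 0.291, 0.00128 without TESTIS-NR 3, and 0.00128 to 0.718 over the alternatives). TSDBGID.19221, at rank 133, had 178, 154 and 174 CPM in R and 299.7, 501 and 161 in TESTIS-NR 1 to 3 (log2 change -0.56, SE 0.35, edgeR adjusted p 0.387, 0.0318 without TESTIS-NR 3, and 0.0318 to 0.801 over the alternatives). The other two, ranks 131 and 138, had 260.5 and 239.9 CPM in the first NR testis and 292 and 277 in the second, against R means of 172 ± 16.0 and 166 ± 9.12 CPM (SD, n = 3). These genes thus met the same rule as the rest while their level in TESTIS-NR 1 and 2 went the other way.

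Genes that are high in the epididymis and low in the testis were counted in the same testis libraries. There were 150 such genes, with an epididymal median of at least 50 CPM and a median under 2 CPM over the 6 testis libraries. That median limits their level in most testis libraries by choice, but leaves the highest libraries free. They took 0.0111% to 0.0143% of the counts in the R testes and 0.104%, 0.0654% and 0.0102% in TESTIS-NR 1 to 3. In the epididymal libraries they took 2.12% to 3.54%. The libraries low in testis-restricted genes, TESTIS-NR 1 and 2, thus had more of these transcripts, which the choice left free to happen. Of all genes with a count in the testis, 50.3% and 52.6% also lay above every R library in TESTIS-NR 1 and 2. The part of these transcripts in the result was not tested.

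A small number of the 154 genes were uneven among the R testes themselves. Rank 17 had 535 CPM in TESTIS-R 1, 94.4 in TESTIS-R 2 and 707 in TESTIS-R 3, and 25.3, 5.90 and 663 in TESTIS-NR 1 to 3. Rank 150 had 33.7, 196 and 227 CPM in TESTIS-R 1 to 3 and 6.78, 1.19 and 198 in NR. Rank 115 had 291, 218 and 38.4 CPM in R and 12.7, 0.224 and 41.4 in NR. These 3 were the genes with a coefficient of variation over 50%, and 6 exceeded 25%. A different library was the low one in each, so no R library was low for all 3.

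Testis-restricted genes were compared with the 1523 genes that also reached 150 CPM in R but had an epididymal median of at least 1 CPM. The 2 sets share this limit and were not matched on R level. In TESTIS-NR 1 the median of these genes was 53.1% of R, against 26.7% for the restricted ones, and in TESTIS-NR 2 it was 46.6% against 3.08%. In TESTIS-NR 3 the medians were 99.9% and 102%. The level in TESTIS-NR 2 followed the epididymal level in steps. It was 8.02% of R for the 154 genes with an epididymal median of 1 to 5 CPM, 21.0% for 232 genes at 5 to 25 CPM, 39.4% for 531 at 25 to 100 CPM and 94.0% for 606 at 100 CPM or more. In TESTIS-NR 1 the genes at 1 to 5 CPM had a median of 27.2%, close to the restricted genes.

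**Figure D4:**
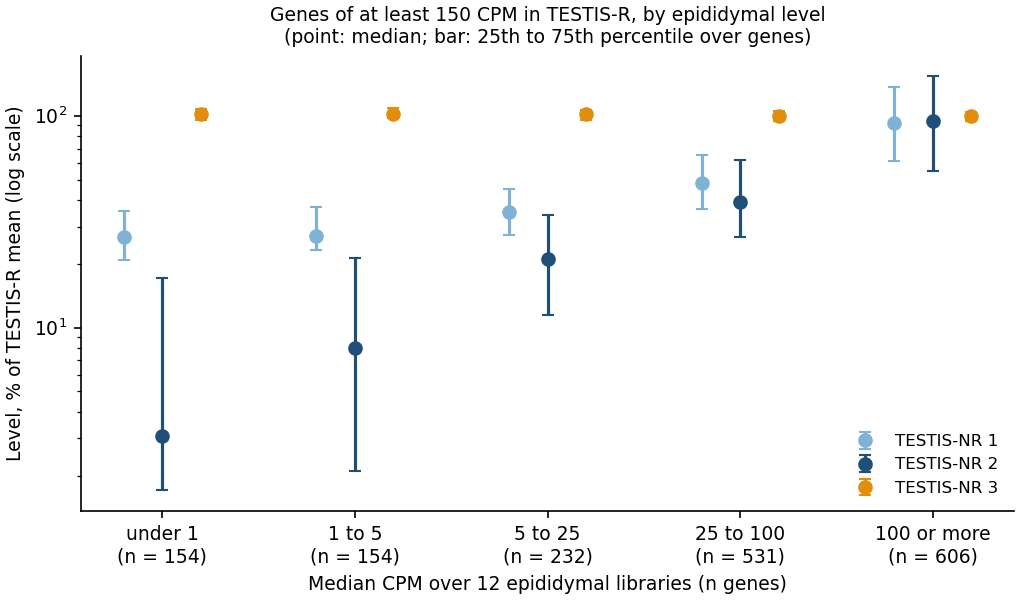
Level in each NR testis library (percent of the R testis mean, log scale) of the 1677 genes with at least 150 CPM in R testes, grouped by their median over the 12 epididymal libraries; points are medians and bars the 25th to 75th percentiles over genes. In TESTIS-NR 2 the medians go from 3.08% to 94.0% across the groups, and in TESTIS-NR 3 they stay between 99.4% and 102%.

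In the epididymis the genes were found at very different levels in single libraries of the same group. They took 0.0488%, 0.00709% and 0.357% of the counts in CAPUT-R 1 to 3, and 0.0203%, 0.00357% and 0.130% in CAPUT-NR 1 to 3. In the cauda the shares were 0.00408%, 0.0145% and 0.0242% in R and 0.00301%, 0.0178% and 0.00535% in NR. The seasons overlapped in both segments. At least 1 CPM was reached by 152 of the 154 genes in CAPUT-R 3, 148 in CAPUT-NR 3, 133 in CAPUT-R 1, 83 in CAUDA-R 3 and 81 in CAUDA-NR 2, but by only 2 to 19 in the other 7 libraries.

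CAPUT-R 3 held the set in nearly the proportions of the R testis. Its level was 8.38% of the R testis mean at the median gene, with a middle range of 7.52% to 8.99%, and 141 of the 154 genes lay between 5% and 11%. The Spearman correlation with the R testis mean over the 154 genes was 0.839. TSDBGID.11207 had 89.9 CPM there, against 11.97 in CAPUT-R 1 and 0.561 in CAPUT-R 2. TSDBGID.8584 had 22.5 CPM, or 9.17% of its R testis mean, close to the median gene. CAPUT-R 3 was the highest epididymal library for 149 of the 154 genes.

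The genes that departed from this proportion were few. Rank 67 had 0 counts in CAPUT-R 3 and 253 ± 50.5 CPM in R testes (SD, n = 3). Rank 140 was at 0.795% of its R testis level in CAPUT-R 3, rank 72 at 0.928% and rank 6 at 2.52%. At the upper end rank 66 was at 22.7%, with 59.4 CPM, and rank 84 at 14.7%. In all, 10 genes were under 5% and 3 over 11%.

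CAPUT-NR 3 also held most of the set, at a lower and less even level. Its median gene was at 2.21% of the R testis mean with a middle range of 1.59% to 2.74%, and 126 genes lay between 1% and 4%. The same correlation was 0.551. Rank 61 had 235 CPM in this library, close to its R testis mean of 285 ± 50.2 (SD, n = 3), and 0 counts in 8 of the 12 epididymal libraries. Rank 67 had 87.6 CPM in this library and 0 counts in the other 11. Rank 66 had 48.8 CPM here, beside its 59.4 in CAPUT-R 3, and 0 counts in 9 epididymal libraries. These levels stood far above most genes of the same library.

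**Figure D5:**
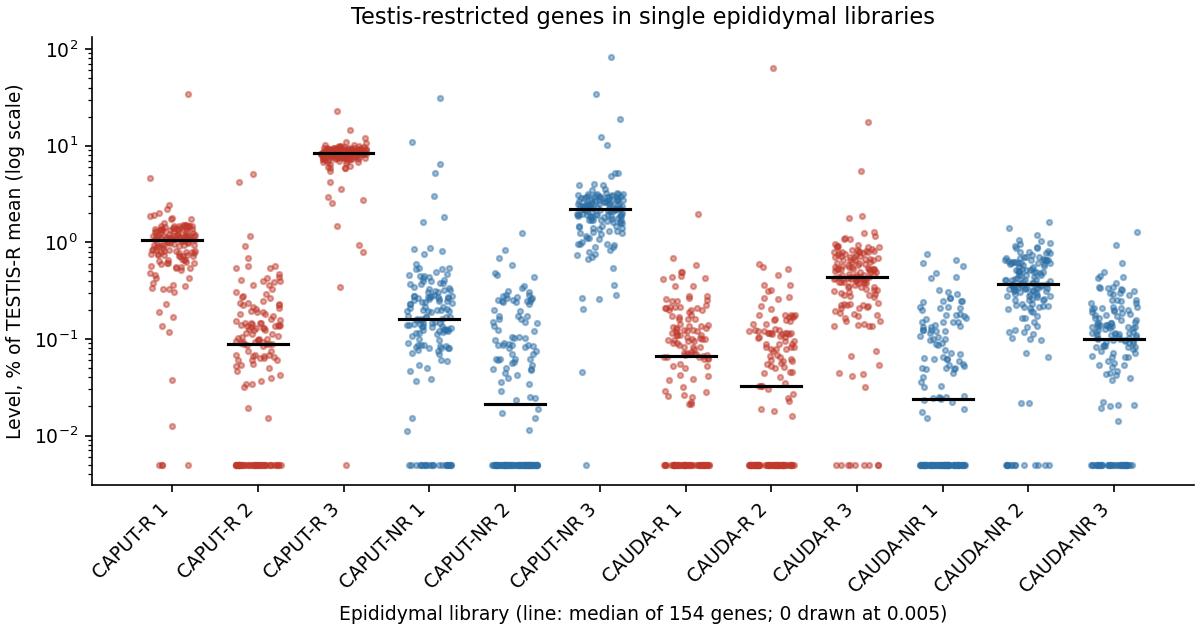
Level of each of the 154 genes in each epididymal library, in percent of its R testis mean (log scale), with the median as a line. CAPUT-R 3 forms a narrow band at 8.38% and CAPUT-NR 3 a wider one at 2.21%, and single genes stand out in libraries where the rest are low.

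Single genes made up most of the signal in some libraries that held little of the set. In CAUDA-R 2 the 3 highest genes took 82.1% of the counts of the set, and rank 115 alone had 117 CPM, where its R testis mean was 183 ± 130.2 (SD, n = 3). The same gene had 56.8 CPM in CAPUT-NR 1 and at most 3.59 in the other 10 epididymal libraries. Rank 154 had 51.1 CPM in CAPUT-R 1, 26.3 in CAUDA-R 3, 18.3 in CAPUT-NR 3 and 14.8 in CAPUT-R 3, and 0 counts in 6 libraries. The 3 highest genes took 51.2% in CAPUT-NR 1. The median gene of the set had only 0.102 CPM in CAUDA-R 2 and 0.520 in CAPUT-NR 1. Over all epididymal libraries 12 genes exceeded 10% of their R testis mean in at least 1 library.

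The season comparison within each segment was not used to choose the genes. In the caput 149 of the 154 passed the filter on low counts, and edgeR called 0 of them, where it called 0% of 17059 genes in each direction. With unadjusted p held to 0.05 the count was also 0, where 6.91% of all genes were higher and 8.79% lower. With the replicate number as a block that count was 91 higher and 1 lower of 149, where 8.98% of all genes were higher and 9.02% lower. The labels tie no R library to the NR library of its number, so this block has no basis in the design. Number 3 held the highest share of the set in both seasons (0.357% in R and 0.130% in NR). The count under the block is therefore not read as a season difference. Without CAPUT-NR 3 the count at unadjusted p was 33 higher and 1 lower of 150, where 9.48% of all genes were higher and 9.36% lower. Without CAPUT-R 3 it was 0 higher and 0 lower of 149, where 5.56% of all genes were higher and 4.74% lower. With any other library left out it was 0 to 6 higher and 0 to 1 lower. In those fits 3.83% to 10.3% of all genes were higher and 3.38% to 12.9% lower. In all of these fits 0 of the set were called after adjustment. DESeq2 called 0 of 140, with 2.21% of all genes higher and 1.75% lower. The median log2 change (R minus NR) was 1.84 with 145 positive, but -0.46 with 36 positive when CAPUT-R 3 was left out and 4.92 without CAPUT-NR 3. A gene high in 1 season alone also passes the filter, so these counts describe the genes that passed.

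In the cauda 90 of the 154 passed the filter and edgeR called 0, where it called 0% of 16454 genes higher and 0.0122% lower. Rank 115 alone was higher with unadjusted p held to 0.05, where 12.5% of all genes were higher and 13.0% lower. DESeq2 called 0 of 147, with 5.50% of all genes higher and 4.94% lower. The median log2 change was 0.08, with 51 positive and 39 negative. It was -1.16 without CAUDA-R 3 and 1.02 without CAUDA-NR 2, the libraries that held most of the set.

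Between the segments the genes called were all higher in the caput in this fit. The median that chose the set was taken over these same 12 libraries, and a gene high in the caput alone also passes the filter, so the counts are a description of the genes that passed. With season as a covariate edgeR tested 115 of the 154 and called 7 higher in the caput (14.4% of 16605 genes) and 0 higher in the cauda (13.3%), which is 6.09% of the tested genes of the set. Rank 94 had 10.1, 9.16 and 26.6 CPM in CAPUT-R 1 to 3, 11.5, 0.633 and 0.449 in CAPUT-NR 1 to 3, and at most 0.220 in any cauda library (log2 difference 7.03, SE 1.25, edgeR adjusted p 0.00154). TSDBGID.8584 had 2.83, 0.224 and 22.5 CPM in CAPUT-R and 16.0, 3.05 and 9.59 in CAPUT-NR, against 0.0630 to 1.08 in the cauda libraries (log2 difference 4.33, SE 1.03, edgeR adjusted p 0.00887). CAPUT-NR 1 held it at 6.51% of its R testis mean, where the median gene of the set was at 0.160%.

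The count of 7 depended on the libraries and the tool. DESeq2 called 64 of 143 higher in the caput, with 14.6% of all genes, and 0 lower, with 11.5%. In edgeR, leaving out CAPUT-R 2 gave 27 of 137 tested, or 19.7% against 14.6% of all genes. Leaving out CAPUT-NR 2 gave 22 of 137, or 16.1% against 13.7%, and leaving out CAUDA-NR 2 gave 20 of 120, or 16.7% against 14.1%. Leaving out CAPUT-NR 3 gave 3 of 116, or 2.59% against 13.0%, and leaving out CAPUT-R 3, CAUDA-NR 3 or CAUDA-R 1 gave 4 each, or 2.92% to 3.48%, below the share of all genes in each of these fits. The share of the set thus lay above or below that of all genes depending on the library left out. The median log2 difference over the 115 tested genes was 2.93, with 114 positive, and over all genes 0.01.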

How the data were processed

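The authors deposited a table of raw counts per gene with 1 column for each of the 18 RNA-seq libraries, and its counts carry no normalization. Tools listed in the submitters' processing notes are featureCounts and bedtools. Versions, aligner and build: not given in the sources used here. Small RNA tables were not used.

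CPM were computed over column totals. Genes and comparisons were chosen with earlier results of these data known. Seasons within each tissue, and caput against cauda with season as a covariate, were tested over the whole table with edgeR 4.0.16 under R 4.3.3. The settings were its quasi-likelihood test, TMM, the default filter on low counts and a Benjamini-Hochberg adjusted p under 0.05. That test gives no SE, so the SE printed with it is the absolute log2 change over the square root of its F statistic. edgeR's step was tested on simulated counts with a low and equal spread in both groups. The NR testes were far more uneven, so that check does not speak for the tests reported here. Alternatives were DESeq2 1.42.0, its size factors, library totals, no filter, a replicate block, all 18 libraries in 1 fit, other limits for the rule and each library left out. The printed identifiers are the 2 highest R means with a positive testis change and the 2 most negative changes; others named by rank were chosen after their values were seen. Gene lists and cell markers planned for this tissue could not be matched, since 0 identifiers paired with a symbol. Counts can be shared between near-identical gene copies, which was not tested.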

Additional observations from a re-analysis of the deposited data

How the results depend on the processing

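The number of genes chosen was 232 at an R testis limit of 100 CPM, 49 at 300 CPM and 74 at an epididymal limit of 0.5 CPM. It was 212 at 2 CPM, 189 with TMM scaling, and, as choices made after seeing the data, 152 without TESTIS-R 2 and 179 without CAPUT-NR 3 and CAPUT-R 3. The median level in TESTIS-NR 1, 2 and 3 was 20.7%, 2.16% and 101% of R with TMM scaling and 19.8%, 2.09% and 103% with DESeq2 size factors. With library totals in place of TMM the median testis change (log2) went from -0.04 to -0.36 over all genes and from 1.20 to 1.12 over the 154. Calls among the 154 in the testis were 0 to 91 with 1 library left out, the 91 without TESTIS-NR 3. Over all testis genes calls were 0 to 9955 with 1 library left out, 634 with DESeq2 and 2552 with all 18 libraries in 1 fit. In the caput all-gene calls were 0 to 1 with 1 library left out, 873 with DESeq2 and 4 in the joint fit, and the median change of the set reversed to -0.46 without CAPUT-R 3 and was 4.92 without CAPUT-NR 3. In the cauda all-gene calls were 0 to 901 with 1 library left out, 2228 with DESeq2, 3 with no filter and 0 with the replicate block. There the median change of the set reversed to -0.011 with library totals, -0.32 without CAUDA-NR 1, -0.08 without CAUDA-NR 3 and -1.16 without CAUDA-R 3, and was 1.02 without CAUDA-NR 2. Calls of the set between the segments were 3 to 27 with 1 library left out, 64 with DESeq2, 10 with no filter and 9 with the replicate block. The causes of these shifts were not tested.

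Libraries of the same number in the 2 seasons had correlations of deviations of -0.01 to 0.06 in the testis, -0.00 to 0.39 in the caput and -0.08 to 0.02 in the cauda. For caput and cauda of the same season they were 0.05 to 0.18 in NR and 0.12 to 0.32 in R, where 5 and 6 of 6 libraries correlated best with their own number. In R all 3 pairs of caput and cauda were above 0.1, which comes from the data and not from the design. Caput libraries of the 2 seasons, collected at different dates, also reached 0.39 with the same number, so such values alone do not show pairing. In NR the pair numbered 2 was at 0.05, so not every pair of that comparison was above 0.1 and the numbers were not taken as pairs. With the block 9 of 115 genes of the set and 5288 of 16605 genes were called between the segments. Without it 7 and 4602 of the same genes were called. The replicate block changed no call of the set in the testis, caput or cauda. With the block the median testis change of the set was 2.46.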

Other observations

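Genes with the same epididymal limit but lower R testis levels were also followed in the NR testes. The limit of 1 CPM is a larger part of a lower R mean, so these groups can hold genes less restricted to the testis. With R means of 50 to 150 CPM there were 255 genes, at a median of 30.0% of R in TESTIS-NR 1 and 4.98% in TESTIS-NR 2. The 210 genes at 25 to 50 CPM had 34.5% and 12.1%, and the 631 genes at 5 to 25 CPM had 37.3% and 16.8%. Within the 154 genes, the 105 at 150 to 300 CPM had 27.5% and 3.59%, and the 49 at 300 CPM or more had 23.3% and 2.26%. In TESTIS-NR 3 all of these groups had medians of 100.2% to 103%. Genes at 50% or more of their R level in TESTIS-NR 2 made up 31.1% of those at 5 to 25 CPM and 6.12% of those at 300 CPM or more.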
